A study of Mus musculus with 12 samples.

Results

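The p53 pathway genes examined here are 32 mouse genes that encode p53, its feedback regulators and targets of its transcriptional activity. They were taken as a list of gene names, with 1 probe set for each gene, the one with the highest mean over the 12 arrays. The list was chosen with earlier results of these data known, so shares set beside all genes describe it and do not test it. Of the 32 genes, 31 were named by a single-symbol probe set on the Affymetrix array, and 29 passed the filter on low signal (a mean above the 40th percentile of probe sets, 5.10 log2 units) among 12912 genes tested. Trp53, which encodes p53 itself, was not analysed here. The stress gene Gadd45a and the death receptor Fas were named but lay below the filter, so they are described without a test.

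RNA was measured on 1 array per sample in primitive progenitors of normal mouse bone marrow, sorted for c-kit+ and sca-1+ cells without lineage markers or FLT3. INV16 (4 arrays, replicates 1 to 4) received a retrovirus with the leukaemia fusion of CBFB and MYH11. ACD mutant (3 arrays, replicates 1 to 3) received that fusion without its assembly competence domain, which the submitters call non-leukemogenic. MIB control (5 arrays, replicates 3 to 7) carried the vector alone. All groups shared the same sort, 24 h of culture with 10% serum, SCF (50 ng/ml) and IL-6 (5 ng/ml), 4 h of exposure to virus, 20 h of further culture and a sort for GFP. The fusion was thus supplied by a retrovirus to cultured normal cells, and replicates came from separate sorts and transductions. In such bulk samples, fewer cells of a type and less RNA per cell cannot be told apart.

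p53 is a transcription factor that is held at low levels by the ubiquitin ligase MDM2 and its partner MDM4, and that accumulates when DNA is damaged or when cells are stressed. Its targets halt the cell cycle, repair DNA, adjust metabolism and growth signalling, or start apoptosis, and several of them, Mdm2 among them, restrain p53 in turn. In blood stem and progenitor cells p53 is known for keeping the cells quiescent and for removing those with damaged DNA.

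p53 binds DNA at paired half-sites, and the upstream sequences of 4 members are shown because each holds a match to the half-site consensus and because their genes are either feedback regulators or among the leading differences below. Each sequence runs 5′ to 3′ on the strand of its gene, covers the 250 bases before the annotated start site, and comes from RefSeq on build GRCm38.p6. Capitals mark the half-site match. Ccng1 lies on the minus strand at chr11:40755287-40755536, with the match beginning 185 bases before the start site.
Ccng1: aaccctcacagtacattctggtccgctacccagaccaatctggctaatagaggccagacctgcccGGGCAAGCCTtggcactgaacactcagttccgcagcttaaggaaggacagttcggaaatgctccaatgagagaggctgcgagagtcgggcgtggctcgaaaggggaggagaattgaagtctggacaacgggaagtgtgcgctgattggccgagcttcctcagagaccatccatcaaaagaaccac
Ei24 lies on the minus strand at chr9:36797335-36797584, with the match in the last 10 bases before the start site.
Ei24: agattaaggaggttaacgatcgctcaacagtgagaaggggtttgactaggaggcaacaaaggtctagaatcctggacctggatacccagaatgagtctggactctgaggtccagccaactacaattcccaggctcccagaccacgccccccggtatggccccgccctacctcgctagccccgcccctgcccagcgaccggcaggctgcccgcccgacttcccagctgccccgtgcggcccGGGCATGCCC
Mdm2 lies on the minus strand at chr10:117710759-117711008, with the match beginning 186 bases before the start site.
Mdm2: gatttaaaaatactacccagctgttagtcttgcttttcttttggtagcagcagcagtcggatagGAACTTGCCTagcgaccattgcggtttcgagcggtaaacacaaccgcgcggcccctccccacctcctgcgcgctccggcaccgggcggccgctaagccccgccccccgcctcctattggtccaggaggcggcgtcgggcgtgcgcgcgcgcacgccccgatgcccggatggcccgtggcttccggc
Ppm1d lies on the plus strand at chr11:85311004-85311253, with the match beginning 132 bases before the start site.
Ppm1d: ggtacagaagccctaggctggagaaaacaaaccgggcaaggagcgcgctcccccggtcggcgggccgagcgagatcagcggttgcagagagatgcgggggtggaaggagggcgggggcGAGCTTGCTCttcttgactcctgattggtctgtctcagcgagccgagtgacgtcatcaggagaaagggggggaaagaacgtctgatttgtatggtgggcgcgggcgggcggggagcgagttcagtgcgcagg
The p53 half-site consensus has 10 letters and is its own reverse complement, so 1 search covered both strands, from 250 bases before to 50 after each annotated start. Of the 25 members with a promoter in the RefSeq table, 9 (36%) held a match, against 2582 of 27025 genes (9.55%) in the whole table. The other 5 were Trp53, Sesn1, Aen, Gadd45a and Polk. No member held 2 half-sites within 13 bases of each other, an arrangement found in 20 genes of the table (0.074%). A match describes letters in this window and not binding.

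The arrays differed in ways that their groups do not name. Array medians lay between 5.62 and 5.79 log2 units. Spike-in control bioC exceeded bioB by 1.25 to 1.44 log2 units in INV16 replicates 1 to 3 and MIB control replicates 3 to 5 (called set A below), and 0.05 to 0.30 in INV16 replicate 4, all ACD mutant arrays and MIB control replicates 6 and 7 (set B), a split made on these values at 0.5 because no label names it. The 3′ minus 5′ difference of the Gapdh control probe sets, which grows as RNA is degraded or shortened, was 3.64 in INV16 replicate 4 and 3.17 in ACD mutant replicate 1, and 1.10 to 1.98 on the other arrays. INV16 replicate 4 correlated with the other arrays at 0.895 to 0.917 across probe sets, and the others among themselves at 0.985 to 0.996. Its mast cell marker list averaged 9.91 log2 units, against 5.74 to 6.50 on the other arrays. Of the 7 progenitor markers named, Cd34 measured 7.39 against 11.15 to 12.35. Hoxa9, Meis1 and Flt3 were also below all other arrays, Kit and Myb within their range and Gata2 above it. Xist, transcribed from the inactive X chromosome, measured 12.68 against 6.02 to 6.48, and the Y chromosome gene Eif2s3y 3.57 against 10.07 to 10.78. Whether its label describes its cells is thus uncertain. INV16 replicate 4 was therefore set apart, and its values are given apart. The comparisons below rest on the other 11 arrays unless 12 are named. On these 11 arrays the sort markers Kit and Flt3 and the progenitor marker Cd34 were all above the filter. Flt3 measured 8.03 to 9.76 although the cells had been sorted as negative for its product. Ly6a, the gene of sca-1, was not named by a single-symbol probe set.

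**Figure D1:**
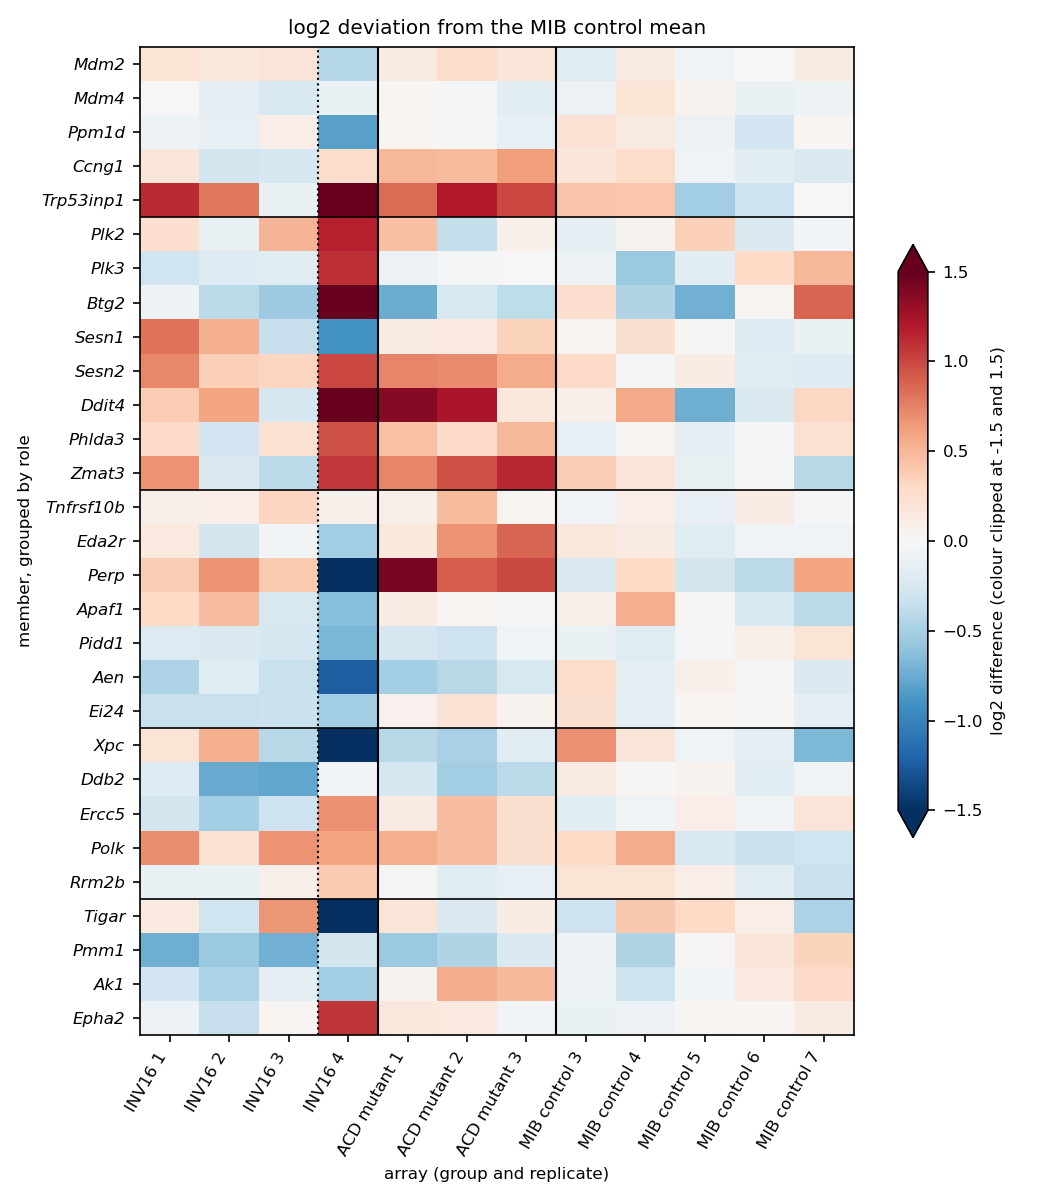
Difference of each of the 29 members that passed the filter (rows, grouped by role and separated by lines) from its MIB control mean, in log2 units by colour, on each of the 12 arrays (columns; INV16 replicate 4 stands right of the dotted line). Trp53inp1, Sesn2, Zmat3, Ccng1 and Perp are above the MIB control mean on all 3 ACD mutant arrays, and INV16 replicate 4 differs from the other INV16 arrays in both directions.

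Cells with the ACD mutant were set against MIB control to see what the fusion does without its assembly domain. Sesn2 and Perp rose in the ACD mutant, and they were the 2 of 29 members that passed the test. The median log2 fold change of the 29 was 0.11, against 0.01 over all genes tested, and 19 were above 0 (65.5%, with 51.4% of all genes) and 10 below. At an adjusted p under 0.05, 2 members (6.90%) were higher and 0 lower, when 0.984% of all genes were higher and 0.713% lower (1.70% in all). By the same limma fit, 13 members and 19.5% of all genes had an unadjusted p under 0.05. In 6 members (20.7%) every ACD mutant array lay above every MIB control array, namely Sesn2, Perp, Zmat3, Ccng1, Trp53inp1 and Phlda3, which was so for 6.92% of all genes. In Aen and Ddb2 (6.90%) every ACD mutant array lay below, against 5.84% of all genes.

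Sesn2 encodes a sestrin, a stress protein that restrains the growth kinase mTORC1. It measured 7.79, 7.78 and 7.63 log2 units on ACD mutant replicates 1 to 3, and 7.35, 7.04, 7.18, 6.89 and 6.87 on MIB control replicates 3 to 7. All ACD mutant arrays were thus above the highest control array. The means were 7.73 ± 0.09 (SD, n = 3) in the ACD mutant and 7.07 ± 0.21 (SD, n = 5) in MIB control, a 1.59-fold rise (log2 fold change 0.67, SE 0.13, adjusted p = 0.0360). Another Sesn2 probe set past the filter differed by only 0.10, and with the mean of both the difference was 0.38 (adjusted p = 0.0928).

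Perp encodes a small membrane protein of cell junctions that p53 and p63 induce. It measured 9.38, 8.86 and 8.94 on the ACD mutant arrays, and 7.74, 8.25, 7.68, 7.56 and 8.55 on the MIB control arrays. The control arrays were spread widely, with replicates 4 and 7 nearest to the ACD mutant arrays, and the groups did not overlap. The means were 9.06 ± 0.28 (SD, n = 3) in the ACD mutant and 7.96 ± 0.42 (SD, n = 5) in MIB control, a 2.15-fold rise (log2 fold change 1.11, SE 0.21, adjusted p = 0.0327).

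Both calls depended on single arrays. The count of 2 became 0 without ACD mutant replicate 1 (0.0232% of all genes called), ACD mutant replicate 2 (0.0387%) or MIB control replicate 5 (0.248%). It became 1 without MIB control replicate 3 (0.898%) or 4 (1.20%), and 4 without INV16 replicate 3 (1.63%). Sesn2 lost its call without ACD mutant replicate 1 (0.64, adjusted p = 0.176), ACD mutant replicate 2 (0.64, adjusted p = 0.189), MIB control replicate 4 (0.66, adjusted p = 0.0501) or MIB control replicate 5 (0.69, adjusted p = 0.0728). Perp lost it without ACD mutant replicate 1 (0.95, adjusted p = 0.170), ACD mutant replicate 2 (1.21, adjusted p = 0.114), MIB control replicate 3 (1.05, adjusted p = 0.0516) or MIB control replicate 5 (1.04, adjusted p = 0.0733). With INV16 replicate 4 in the fit, 0 members passed, and 0 of all genes (891 at unadjusted p under 0.05). Adjusted p was then 0.437 for Sesn2 and 0.749 for Perp.

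A further 3 members led the list without passing the test. Zmat3, an RNA-binding zinc-finger gene, measured 8.23, 8.46 and 8.62 on the ACD mutant arrays, and 7.86, 7.68, 7.39, 7.46 and 7.09 on the MIB control arrays. Its log2 fold change was 0.94 (SE 0.23, adjusted p = 0.0531). Ccng1 encodes cyclin G1, which recruits a phosphatase to MDM2, and its upstream half-site match is shown above. It measured 11.82, 11.78 and 11.93 on the ACD mutant arrays, and 11.49, 11.58, 11.26, 11.14 and 11.09 on the MIB control arrays (log2 fold change 0.53, SE 0.14, adjusted p = 0.0668). The other Ccng1 probe sets differed by 0.52 and 0.19. Trp53inp1, whose product promotes p53 activity and autophagy under stress, measured 9.59, 9.96 and 9.75 on the ACD mutant arrays, and 9.18, 9.17, 8.22, 8.44 and 8.74 on the MIB control arrays (log2 fold change 1.02, SE 0.27, adjusted p = 0.0654). In all 3 genes the groups did not overlap.

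All ACD mutant arrays belonged to spike-in set B, which held 2 MIB control arrays. Within set B alone, 4 members passed the test, all higher in the ACD mutant, against 0.325% of all genes called in either direction. They were Sesn2 (log2 fold change 0.85, adjusted p = 0.0419), Trp53inp1 (1.18, adjusted p = 0.0419), Zmat3 (1.16, adjusted p = 0.0428) and Ccng1 (0.73, adjusted p = 0.0465). Perp differed by 1.01 there and did not pass (adjusted p = 0.113). With the set as a block over the 11 arrays Sesn2 passed (adjusted p = 0.0456), and Perp (0.102), Zmat3 (0.0822), Ccng1 (0.0730) and Trp53inp1 (0.121) did not. The Gapdh 3′ minus 5′ difference was 3.17, 1.98 and 1.63 on the ACD mutant arrays, and 1.34 to 1.76 on the MIB control arrays, and its part in these differences was not tested. The mast cell markers, 10 of 10 named, averaged 6.33 to 6.50 in the ACD mutant and 5.74 to 6.39 in MIB control. Among them Hdc, which makes histamine, measured 10.62, 10.40 and 10.32 in the ACD mutant and 8.32 to 9.34 in MIB control, and the protease gene Cpa3 measured 11.05 to 11.38 in the ACD mutant, above every MIB control array. The receptor gene Fcer1a was lower, at 4.27 to 4.47 in the ACD mutant and 4.79 to 5.74 in MIB control. All its ACD mutant values lay under the filter cut of 5.10. It passed the filter on a mean that includes 13.31 on INV16 replicate 4. The part of these markers in the member differences was not tested.

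**Figure D2:**
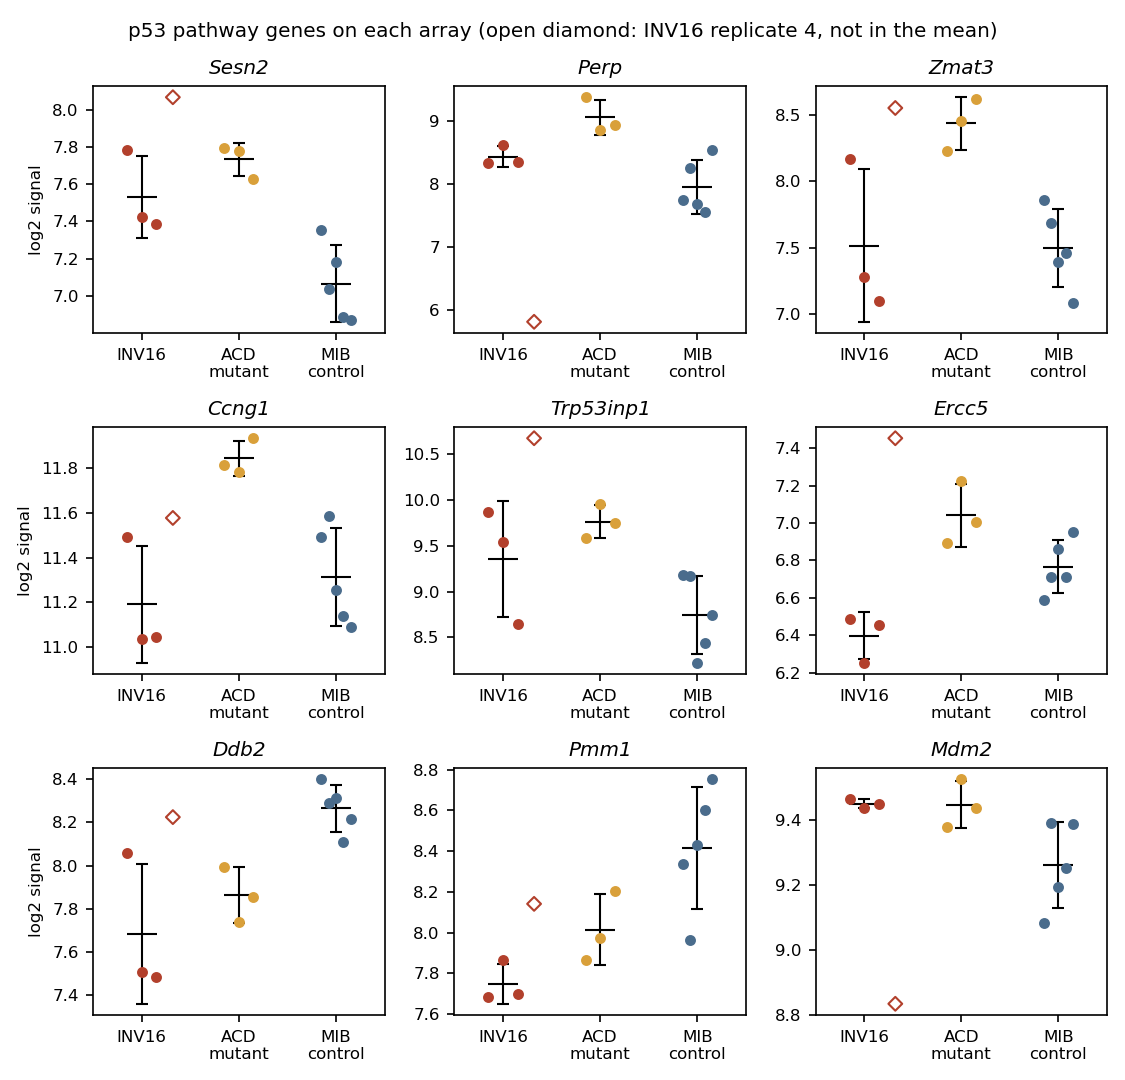
Log2 signal of 9 members on each array, by group, with filled points for single arrays, a horizontal bar for the mean and whiskers for 1 SD (n = 3, 3 and 5 from left to right). INV16 replicate 4 is an open diamond and is not in the mean; Sesn2, Perp, Zmat3, Ccng1 and Trp53inp1 do not overlap between the ACD mutant and MIB control, and Ercc5 does not overlap between INV16 and the ACD mutant.

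Among the remaining growth arrest and stress genes, none passed in the ACD mutant. The mTORC1 inhibitor Ddit4 differed by 0.92 (SE 0.32, adjusted p = 0.128), with 8.97, 8.83 and 7.76 on the ACD mutant arrays and 6.87 to 8.17 on the MIB control arrays, so the groups overlapped through replicate 3. The AKT inhibitor Phlda3 differed by 0.41 (adjusted p = 0.123) without overlap. Sesn1, a second sestrin, differed by 0.21, the polo-like kinases Plk2 and Plk3 by 0.06 and -0.04, and the antiproliferative gene Btg2 by -0.45. The Btg2 probe sets disagreed in sign, the other one differing by 0.29.

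The death receptor and apoptosis genes other than Perp had differences of both signs, and none passed. Eda2r, a receptor of the TNF receptor family, differed by 0.57 (SE 0.16, adjusted p = 0.0735). Its groups overlapped, and its MIB control mean of 5.09 lay at the filter cut of 5.10. It passed the filter only through its ACD mutant arrays, with a mean of 5.66. The nuclease gene Aen differed by -0.39 (SE 0.13, adjusted p = 0.113), with 9.73 to 10.00 on the ACD mutant arrays and 10.02 to 10.51 on the MIB control arrays. The other Aen probe sets past the filter disagreed in sign, at -0.12, -0.38 and 0.07. The death receptor gene Tnfrsf10b differed by 0.20, Ei24, an endoplasmic reticulum protein of autophagy, by 0.11, Apaf1, the core of the apoptosome, by 0.04, and Pidd1, a scaffold that activates caspase-2, by -0.21.

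None of the regulators of p53 passed in the ACD mutant. Mdm2 measured 9.38, 9.53 and 9.44 on the ACD mutant arrays, and 9.08, 9.39, 9.19, 9.25 and 9.39 on the MIB control arrays, a difference of 0.19 (SE 0.10, adjusted p = 0.326). The other Mdm2 probe sets differed by 0.15 and, below the filter, 0.10. Mdm4 measured 8.61, 8.55 and 8.40 on the ACD mutant arrays, and 8.49, 8.78, 8.63, 8.47 and 8.49 on the MIB control arrays, and differed by -0.05 (adjusted p = 0.851). Ppm1d, a phosphatase that switches p53 signalling off, measured 9.07, 9.03 and 8.93 on the ACD mutant arrays, and 9.27, 9.19, 8.96, 8.77 and 9.08 on the MIB control arrays (-0.04, adjusted p = 0.909). In all 3 regulators the groups overlapped.

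The repair and metabolic genes were not called either. The damage sensor of nucleotide excision repair Ddb2 differed by -0.40 (SE 0.13, adjusted p = 0.122) without overlap, and its partner in damage recognition, Xpc, by -0.36, but by 0.05 within set B. The excision nuclease gene Ercc5 differed by 0.28, the bypass polymerase gene Polk by 0.41, and Rrm2b, a ribonucleotide reductase subunit, by -0.09. The phosphomannomutase gene Pmm1 differed by -0.40, the adenylate kinase gene Ak1 by 0.37, Tigar, which lowers glycolytic flux, by 0.03, and the ephrin receptor gene Epha2 by 0.09. With the set as a block 4 of the 29 members turned sign against MIB control, Xpc and the small differences of Mdm4, Ppm1d and Rrm2b.

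INV16 was set against MIB control to see what the complete fusion does. Of the 29 members 0 passed the test in INV16 (limma, 9 at unadjusted p under 0.05, with 15.8% of all genes), while 0.627% of all genes were called higher and 1.07% lower (1.70% in all). With 12 arrays the count was 0 as well (0.155% of all genes), and with array weights over 12 arrays it was 8 of 29, when 11.4% of all genes were called. The count was 1 without INV16 replicate 1 (Ddb2, adjusted p = 0.0271, with 0.225% of all genes called), without MIB control replicate 3 (Sesn2, adjusted p = 0.0472, with 2.15%), without MIB control replicate 4 (Pmm1, adjusted p = 0.00956, with 2.57%) or without INV16 replicate 3 (1.99%). The median log2 fold change was -0.03, equal to that of all genes at -0.03, with 14 members above 0 (48.3%, with 43.7% of all genes) and 15 below. In 2 members (6.90%), Mdm2 and Sesn2, every INV16 array lay above every MIB control array, against 3.28% of all genes. In 5 members (17.2%), Ddb2, Pmm1, Ei24, Ercc5 and Pidd1, every INV16 array lay below, against 5.99% of all genes.

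Ddb2 and Pmm1 lay at the threshold. Ddb2 measured 8.06, 7.51 and 7.49 on INV16 replicates 1 to 3, and 8.40, 8.29, 8.31, 8.11 and 8.22 on MIB control replicates 3 to 7. Replicate 1 was the highest INV16 array and lay just under the lowest control array. The means were 7.69 ± 0.32 (SD, n = 3) in INV16, against 8.26 ± 0.11 (SD, n = 5) in MIB control. The log2 difference was -0.58 (SE 0.13, adjusted p = 0.0501). The other Ddb2 probe set also differed by -0.58.

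Pmm1 measured 7.69, 7.86 and 7.70 on the INV16 arrays, and 8.34, 7.96, 8.43, 8.60 and 8.75 on the MIB control arrays. Its log2 fold change was -0.67 (SE 0.16, adjusted p = 0.0501), and that of its other probe set -0.72. With the mean of all probe sets past the filter, Ddb2 (adjusted p = 0.0258) and Pmm1 (adjusted p = 0.0497) passed. Within spike-in set A, which held 3 arrays of each group, Ddb2 differed by -0.65 (adjusted p = 0.157) and Pmm1 by -0.49 (adjusted p = 0.213).

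On the probe set used, Sesn2 had a mean of 7.53 in INV16, between the means of the other groups. It measured 7.78, 7.43 and 7.38 on the INV16 arrays, against 6.87 to 7.35 in MIB control (log2 fold change 0.47, SE 0.13, adjusted p = 0.109). Within set A the difference was 0.34 (adjusted p = 0.375). The other Sesn2 probe set past the filter had its highest mean in INV16, at 7.08, with 6.93 in the ACD mutant and 6.84 in MIB control. Ei24 measured 10.28, 10.27 and 10.29 on the INV16 arrays, and 10.85, 10.47, 10.64, 10.63 and 10.48 on the MIB control arrays (-0.33, SE 0.10, adjusted p = 0.144). Ercc5 measured 6.48, 6.25 and 6.45 on the INV16 arrays, and 6.59, 6.71, 6.86, 6.71 and 6.95 on the MIB control arrays (-0.37, SE 0.11, adjusted p = 0.139). Mdm2 measured 9.46, 9.44 and 9.45 on the INV16 arrays, close together and above the 9.08 to 9.39 of MIB control (0.19, SE 0.10, adjusted p = 0.371). Mdm4 measured 8.57, 8.44 and 8.35 on the INV16 arrays (-0.12, adjusted p = 0.632), and Ppm1d 8.98, 8.93 and 9.15 (-0.03, adjusted p = 0.923), both overlapping with MIB control. The other Mdm4 probe sets had the opposite sign, at 0.26, 0.12 and, below the filter, 0.25.

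Zmat3, Ccng1 and Trp53inp1, which led in the ACD mutant, overlapped with MIB control in INV16. Zmat3 measured 8.17, 7.28 and 7.10 on the INV16 arrays, a log2 fold change against MIB control of 0.02 (SE 0.23, adjusted p = 0.978). Ccng1 measured 11.49, 11.03 and 11.05 (-0.12, SE 0.14, adjusted p = 0.735), and Trp53inp1 9.87, 9.54 and 8.65 (0.61, SE 0.27, adjusted p = 0.291). INV16 replicate 1 was the highest of the 3 INV16 arrays in 14 of the 29 members, these 3 among them, replicate 3 in 9 and replicate 2 in 6. The median deviation of replicate 1 from the MIB control mean over the 29 members was 0.14, against -0.18 and -0.19 on INV16 replicates 2 and 3. These medians were 0.12, 0.15 and 0.08 on the ACD mutant arrays, and -0.05 to 0.12 on the MIB control arrays themselves.

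The other members in INV16 missed the test against MIB control as well. Perp measured 8.33, 8.63 and 8.35 on the INV16 arrays and differed by 0.48 (adjusted p = 0.290), Polk by 0.53 (adjusted p = 0.222), Sesn1 by 0.33, Ddit4 by 0.24 and Plk2 by 0.22. Aen differed by -0.33 (adjusted p = 0.226), Btg2 by -0.34, Ak1 by -0.30, Pidd1 by -0.23 and Plk3 by -0.23. Phlda3, Tnfrsf10b, Eda2r, Apaf1, Xpc, Rrm2b, Tigar and Epha2 differed by -0.13 to 0.17. Within set A 4 of the 29 members turned sign, Plk3 (0.04 there), Zmat3, Apaf1 and Xpc.

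INV16 was set against the ACD mutant to see what depends on the assembly domain. Ercc5, which encodes the XPG nuclease of excision repair, fell in INV16, and it was the 1 of 29 members (3.45%) that passed the test. At the same threshold 1.76% of all genes were lower and 0.310% higher (2.07% in all), and 0 members were higher (limma, 7 members at unadjusted p under 0.05 in either direction, with 19.0% of all genes). The median of the members was -0.18, against -0.02 over all genes, with 11 above 0 (37.9%, with 45.7% of all genes) and 18 below. In 9 members (31.0%) every INV16 array lay below every ACD mutant array, namely Ercc5, Ccng1, Zmat3, Ak1, Ei24, Eda2r, Perp, Pmm1 and Plk3, and in 0 above. Over all genes these shares were 19.2% and 9.45%. Eda2r averaged 5.04 in INV16 and 5.66 in the ACD mutant, and passed the filter cut of 5.10 only through its ACD mutant arrays. Its groups nearly met, at 5.24 on INV16 replicate 1 and 5.25 on ACD mutant replicate 1. With the spike-in set as a block 2 of the 9 turned sign, Plk3 (-0.19 without the block, 0.48 with it) and Pmm1 (-0.27 without, 0.17 with), as did 13 of the 29 members in all.

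Ercc5 measured 6.48, 6.25 and 6.45 on INV16 replicates 1 to 3, and 6.89, 7.23 and 7.01 on ACD mutant replicates 1 to 3. The means were 6.40 ± 0.13 (SD, n = 3) in INV16, against 7.04 ± 0.17 (SD, n = 3) in the ACD mutant, and the MIB control mean of 6.77 lay between them. The log2 fold change was -0.64 (SE 0.13, adjusted p = 0.0254), a 1.56-fold fall. The call was lost without INV16 replicate 1 (-0.69, adjusted p = 0.0707), INV16 replicate 2 (-0.57, adjusted p = 0.102), ACD mutant replicate 2 (-0.55, adjusted p = 0.131) or ACD mutant replicate 3 (-0.66, adjusted p = 0.0637), and with 12 arrays (-0.38, adjusted p = 0.520), when 0.0387% of all genes passed. The count of 1 became 0 without INV16 replicate 2 (0.418% of all genes called), ACD mutant replicate 2 (0.279%) or ACD mutant replicate 3 (0.883%). It became 2 without INV16 replicate 1 (0.604%) or ACD mutant replicate 1 (0.627%), 3 without MIB control replicate 3 (2.99%) or 4 (2.75%), and 4 without MIB control replicate 7 (3.91%). INV16 replicate 4, at 7.45, was above all ACD mutant arrays.

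Another 4 members followed without passing. Ccng1, at 11.49, 11.03 and 11.05 on the INV16 arrays and 11.82, 11.78 and 11.93 on the ACD mutant arrays, differed by -0.65 (SE 0.16, adjusted p = 0.0529). Its other probe sets differed by -1.03 and -0.41. Ak1 measured 6.13, 5.95 and 6.27 on the INV16 arrays, and 6.47, 6.98 and 6.91 on the ACD mutant arrays (-0.67, SE 0.17, adjusted p = 0.0575). The MIB control arrays, at 6.35, 6.11, 6.38, 6.57 and 6.70, overlapped with both groups. Ei24 measured 10.28, 10.27 and 10.29 on the INV16 arrays, and 10.68, 10.83 and 10.66 on the ACD mutant arrays (-0.44, SE 0.12, adjusted p = 0.0646). Zmat3 differed by -0.92 (SE 0.25, adjusted p = 0.0757), with INV16 replicate 1, at 8.17, close to ACD mutant replicate 1, at 8.23.

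Sesn2 and Mdm2 did not pass between the fusions. Sesn2 differed by -0.20 (SE 0.15, adjusted p = 0.503) and Mdm2 by 0.00 (SE 0.11, adjusted p = 0.994). The other Sesn2 probe set past the filter had the opposite sign, at 0.15. Perp differed by -0.63 (SE 0.23, adjusted p = 0.169) and Eda2r by -0.62 (SE 0.17, adjusted p = 0.0807). The largest positive difference was that of Xpc, at 0.46 (SE 0.29, adjusted p = 0.418), which became -0.21 with the spike-in set as a block.

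The INV16 arrays were all in spike-in set A and the ACD mutant arrays all in set B, so this comparison has no value within a set and the set and the groups are joined only through MIB control. With the set as a block, Ercc5 differed by -0.53 (adjusted p = 0.324), Ccng1 by -0.98 (adjusted p = 0.157), Zmat3 by -1.29 (adjusted p = 0.274), Ei24 by -0.54 (adjusted p = 0.305) and Ak1 by -0.31 (adjusted p = 0.608). The megakaryocyte markers, of which 4 of 5 were named and all 4 were above the filter, averaged 7.63 to 7.91 log2 units in INV16, 9.06 to 9.48 in the ACD mutant and 7.74 to 9.75 in MIB control. The neutrophil markers, 7 of 7 named, averaged 6.36 to 6.84 in INV16, 6.97 to 7.37 in the ACD mutant and 7.02 to 8.82 in MIB control. INV16 also lay below the ACD mutant in 3 further marker averages. The mast cell markers averaged 6.02 to 6.09 in INV16 and 6.33 to 6.50 in the ACD mutant, and 7 of the 10 passed the filter. Single genes also went the other way. Cma1 measured 5.05 to 5.27 in INV16 and 4.64 to 4.80 in the ACD mutant, and Fcer1a was higher on INV16 replicates 1 and 2, at 5.32 and 5.23. Both passed the filter on means that include INV16 replicate 4, at 12.70 and 13.31. The lymphoid markers, 6 of 7 named and 4 past the filter, averaged 6.13 to 6.18 in INV16, 6.32 to 6.37 in the ACD mutant and 6.15 to 6.50 in MIB control. Among them Cd79b measured 6.82 to 7.08 in INV16 and 7.60 to 7.81 in the ACD mutant, while Cd79a overlapped, at 5.06 to 5.35 and 5.05 to 5.14. The monocyte and macrophage markers, 5 of 6 named, lay below the 8.53 to 8.68 of the ACD mutant on every INV16 array, with 7.49 to 8.83 in MIB control. The part of these markers in the member differences was not tested.

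**Figure D3:**
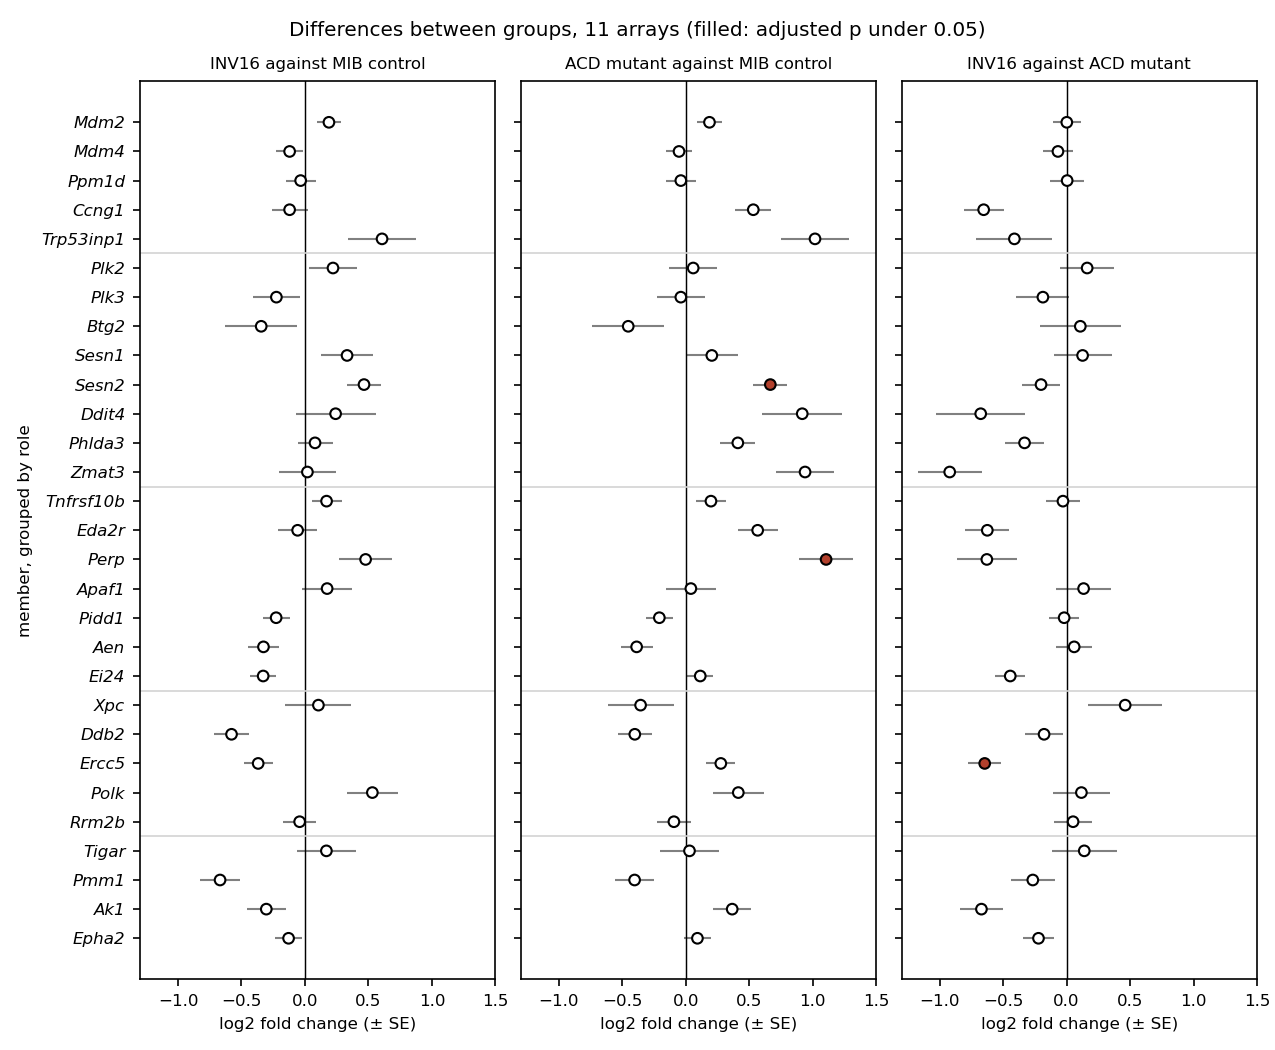
Log2 fold change (point) with its standard error (line) for the 29 members, one panel per comparison, from the fit to 11 arrays, with filled points where the adjusted p was under 0.05. Filled points are Sesn2 and Perp in the ACD mutant against MIB control, and Ercc5 in INV16 against the ACD mutant.

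Gadd45a, a growth arrest gene induced by DNA damage, lay below the filter but varied within the controls. It measured 4.28, 4.43 and 4.26 on INV16 replicates 1 to 3, 4.34, 3.88 and 4.28 on the ACD mutant arrays, and 5.85, 5.64, 5.16, 4.26 and 4.46 on MIB control replicates 3 to 7. The MIB control arrays of set A were thus higher than those of set B, and within set A the INV16 arrays were below all 3 control arrays. Fas lay between 4.50 and 4.96 on the 11 arrays with all groups overlapping.

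INV16 replicate 4 is a single array and is given as values. Of the 29 members 10 lay above all other 11 arrays there, 12 below and 7 within, while 34.3% of all genes lay above and 38.8% below. Ddit4 measured 10.76, against 7.35 to 8.19 on the other INV16 arrays. Btg2 measured 9.09 against 6.69 to 7.16, Plk3 7.40 against 6.00 to 6.11, and Trp53inp1 10.68 against 8.65 to 9.87. Perp was lower, at 5.82 against 8.33 to 8.63 on the other INV16 arrays. So were Tigar, at 4.87 against 6.97 to 7.93, Xpc, at 7.24 against 9.11 to 10.07, and Sesn1, at 10.23 against 10.79 to 11.95. Mdm2, at 8.83, and Ppm1d, at 8.24, were below all other arrays, and Zmat3 (8.55), Ccng1 (11.58) and Ddb2 (8.22) lay within their range.

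Other genes of the pathway came from a list of 59 further p53 targets, also chosen with earlier results of these data known. Of these genes, 48 were tested. In the ACD mutant against MIB control 3 of them rose and 0 fell, when 0.984% of all genes rose and 0.713% fell. Their median was 0.12, with 0.01 over all genes, and 35 were above 0, with 51.4% of all genes. In INV16 against MIB control 1 rose and 0 fell (0.627% and 1.07% of all genes), with a median of -0.02 (all genes -0.03) and 22 above 0 (43.7% of all genes). In INV16 against the ACD mutant 0 rose and 2 fell (0.310% and 1.76% of all genes), with a median of -0.19 (all genes -0.02) and 14 above 0 (45.7% of all genes). With 12 arrays none of the 48 passed in any comparison.

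Bbc3, which encodes the death protein PUMA, averaged 7.46 ± 0.11 (SD, n = 3) in the ACD mutant and 6.80 ± 0.24 (SD, n = 5) in MIB control, and rose by 0.66 (SE 0.13, adjusted p = 0.0364). Notch1, a cell-fate receptor, averaged 9.25 ± 0.19 (SD, n = 3) in the ACD mutant and 8.52 ± 0.16 (SD, n = 5) in MIB control, and rose by 0.72 (SE 0.14, adjusted p = 0.0327). Rb1, the retinoblastoma growth suppressor, averaged 9.52 ± 0.09 (SD, n = 3) in the ACD mutant and 9.04 ± 0.15 (SD, n = 5) in MIB control, and rose by 0.48 (SE 0.11, adjusted p = 0.0481). With the spike-in set as a block none of the 3 passed, at differences of 0.49 for Bbc3 (adjusted p = 0.142), 0.78 for Notch1 (0.0744) and 0.61 for Rb1 (0.0694), the last 2 larger than without the block. The Bbc3 call was lost without INV16 replicate 1, ACD mutant replicate 1 or 2, or MIB control replicate 3 or 5 (adjusted p from 0.0510 to 0.189). That of Notch1 was lost without ACD mutant replicate 1 or 2 or MIB control replicate 5 (0.0728 to 0.189). That of Rb1 was lost without any one of the ACD mutant arrays, INV16 replicate 1 or 2, or MIB control replicate 3, 5 or 6 (0.0516 to 0.223).

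Cdkn1a, which encodes the cell cycle inhibitor p21 and is a classical p53 target, averaged 10.38 ± 0.15 (SD, n = 3) in the ACD mutant and 9.62 ± 0.38 (SD, n = 5) in MIB control. The groups did not overlap, and the difference of 0.76 (SE 0.18) just missed the threshold (adjusted p = 0.0531). With the spike-in set as a block this difference was 0.55 (adjusted p = 0.219), and within set B it was 0.55 (adjusted p = 0.101). In INV16 Cdkn1a averaged 9.86 ± 0.12 (SD, n = 3), which differed from MIB control by 0.24 (adjusted p = 0.564) and from the ACD mutant by -0.52 (adjusted p = 0.188). With the set as a block INV16 differed from the ACD mutant by -0.16 (adjusted p = 0.864). Pmaip1, which encodes the death protein NOXA, had a difference of the opposite sign, with 7.06 ± 0.58 (SD, n = 3) in the ACD mutant and 7.83 ± 0.74 (SD, n = 5) in MIB control (-0.77, SE 0.41, adjusted p = 0.333). Bax was not among the genes tested.

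Bcl6, a transcriptional repressor, averaged 8.64 ± 0.06 (SD, n = 3) in INV16, against 7.94 ± 0.25 (SD, n = 5) in MIB control, and rose by 0.69 (SE 0.13, adjusted p = 0.0217). Its call was lost without INV16 replicate 1 or 2 or MIB control replicate 5 (adjusted p from 0.0558 to 0.119), and with INV16 replicate 4 its difference was -0.11 (adjusted p = 0.909). It was 0.66 with the spike-in set as a block (adjusted p = 0.0579) and within set A (adjusted p = 0.0850). Rb1 averaged 8.97 ± 0.14 (SD, n = 3) in INV16, against 9.52 ± 0.09 (SD, n = 3) in the ACD mutant, so it fell by 0.55 (SE 0.12, adjusted p = 0.0415). Slc19a2, a thiamine transporter gene, averaged 8.77 ± 0.27 (SD, n = 3) in INV16, against 9.45 ± 0.06 (SD, n = 3) in the ACD mutant, and fell by 0.68 (SE 0.15, adjusted p = 0.0411). Both calls were lost without INV16 replicate 1 or 3, any one ACD mutant array or MIB control replicate 5, and that of Rb1 also without INV16 replicate 2 (adjusted p from 0.0595 to 0.174 for Rb1 and from 0.0550 to 0.168 for Slc19a2). With the set as a block neither passed, at larger differences of -0.76 for Rb1 (adjusted p = 0.176) and -0.88 for Slc19a2 (0.251).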

How the data were processed

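Expression was measured in 12 samples, 1 Affymetrix array each, and grouped by the sample titles. The authors deposited log2 values for 45101 probe sets, already summarised. The base 2 was inferred from their range, 2.82 to 14.97, and the authors' background correction and normalisation are not given in the sources used here. Poly-A RNA was amplified in repeated cycles before labelling, per the labels' protocols, which can weaken signal far from the 3′ end.

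Gene names came from GEO's platform annotation: 34945 had 1 symbol, 932 several and 9211 none, and 64 control probe sets were left out. Probe sets above the 40th percentile of means (5.10) were kept, and the one with the highest mean over the 12 arrays stood for each of 12912 genes. A limma model (version 3.58.1, R 4.3.3), with a mean per group over 11 arrays, was tested two-sided with moderation and Benjamini-Hochberg adjustment over all genes, and genes were called at an adjusted p under 0.05. All adjusted p-values come from limma. SE is the moderated standard error. The script was checked on simulated data.

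Values on every array are given for the regulators Mdm2, Mdm4, Ccng1 and Ppm1d, for called members and for the 5 smallest p-values of each comparison, and the others are summarised. Of the other lists, Cdkn1a, Bax, Bbc3, Pmaip1 and called genes are named. The members and lists were chosen with earlier results of these data known. Alternatives covered the 12 arrays with and without array weights, quantile normalisation, filters, probe-set means, moderation, the groups fitted, blocks and single arrays left out.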

Additional observations from a re-analysis of the deposited data

Results flagged for a closer look

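Among 31 members named on the array, 7 values stood far from the other arrays of their group, all within INV16. Chance alone flags about 1 in 20 groups. No value of the MIB control arrays did so in any of the 31 members, and the ACD mutant, with 3 arrays, was not examined. INV16 replicate 4 gave 6 of the 7, of which 5 were low and 1 high. On that array Mdm2 measured 8.83 against 9.44 to 9.46 on the other INV16 arrays, Perp 5.82 against 8.33 to 8.63, Pidd1 6.57 against 7.00 to 7.06, Ei24 10.09 against 10.27 to 10.29, and Gadd45a, below the filter, 3.41 against 4.26 to 4.43. Plk3 was the high one, at 7.40 against 6.00 to 6.11. The value from another array was that of Tnfrsf10b on INV16 replicate 3, at 5.54 against 5.30 to 5.33. On INV16 replicate 4, 34.3% of all genes lay above all other 11 arrays and 38.8% below, so outlying values were common there. How many of all genes stood this far from the other INV16 arrays was not tested. The 6 members on INV16 replicate 4, and their directions, thus cannot be set apart from genes at large.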

How the results depend on the processing

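With 12 arrays, the called members numbered 0 in INV16 against MIB control, 0 in the ACD mutant against MIB control and 0 in INV16 against the ACD mutant. With array weights, where INV16 replicate 4 weighed 0.04, they numbered 8, 6 and 6, when 11.4%, 7.30% and 16.1% of all genes were called. In INV16 against MIB control the count of 0 became 2 with a 60th percentile filter (2.11% of all genes) or with the mean of probe sets (1.69%), and 0 to 1 with single arrays left out. In the ACD mutant against MIB control the count of 2 became 1 with the mean of probe sets (1.60% of all genes), with only those groups fitted (0.558%) or with the spike-in set as a block (0.155%), and 4 within set B (0.325%). In INV16 against the ACD mutant the count of 1 became 2 with an intensity trend (2.18% of all genes), 5 with only those groups fitted (6.51%) and 0 with the set block, where 0 of all genes were called. Leaving out single arrays gave 0 to 4 in each of the comparisons that involve the ACD mutant.

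The median of the members in the ACD mutant against MIB control, 0.11, was 0.17 with the set block, 0.17 within set B and 0.11 to 0.17 with single arrays left out. In INV16 against the ACD mutant, -0.18 became -0.034 with array weights, -0.068 without a filter, -0.068 with the 60th percentile filter and -0.18 to -0.09 with single arrays left out. In INV16 against MIB control it stayed between -0.07 and 0.02 with single arrays left out. Sesn2 and Perp were above 0 under all 22 alternatives and called in 14 and 13. Ercc5 was below 0 under all 21 and called in 14. Many of these alternatives leave the difference itself unchanged and can move only the adjusted p. Leaving out an INV16 array kept Sesn2 at 0.67 and Perp at 1.11, and leaving out a MIB control array kept Ercc5 at -0.64. The sign was fixed in advance in those fits.

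Same-numbered INV16 and ACD mutant arrays did not deviate together (correlations of -0.31 to -0.16). MIB control replicate 3 correlated at -0.33 with INV16 replicate 3 and at 0.09 with ACD mutant replicate 3. INV16 and ACD mutant arrays lie in different spike-in sets, so these values cannot settle whether same-numbered arrays share more than a number. The fit with the replicate number as a block gave member medians of -0.14, 0.21 and -0.18 for the comparisons in the order above. The all-gene medians were 0.03, 0.07 and -0.02. MIB control replicates 4 to 7 share their number with no other array in this fit. Both comparisons with MIB control thus rest there on its replicate 3 alone, which lies in set A, while the ACD mutant arrays lie in set B. In INV16 against the ACD mutant the fit called 0 members and 2.94% of all genes. For the ACD mutant against MIB control this block gave 0.25 for Sesn2, 0.23 for Trp53inp1, 0.46 for Zmat3, 0.32 for Ccng1 and 1.22 for Perp. Array numbers of 3 to 5 limit the precision, and the values carry no measure of background. The causes of these shifts were not tested.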

Other observations

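Genes upstream of p53, such as the damage kinases and the enzymes that modify p53, were tested for 40 of 44 list members. None passed in INV16 or in the ACD mutant against MIB control, when 1.70% of all genes did in each, and their medians were -0.03 and -0.00. In INV16 against the ACD mutant 1 fell, when 1.76% of all genes did. It was Prkdc, the catalytic subunit of the DNA-dependent protein kinase. It averaged 8.73 ± 0.19 (SD, n = 3) in INV16, against 9.34 ± 0.08 (SD, n = 3) in the ACD mutant (-0.61, SE 0.14, adjusted p = 0.0411). The call was lost without any one INV16 or ACD mutant array or MIB control replicate 5 (adjusted p from 0.0553 to 0.167), and with 12 arrays (0.151). With the spike-in set as a block the difference was -0.48 (adjusted p = 0.394), and INV16 and ACD mutant arrays lie in different sets.

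Genes of the integrated stress response, a pathway that also induces Sesn2 and Ddit4, were tested for 22 of 24 list members. None passed in any comparison by limma, when 1.70% to 2.07% of all genes did. Their medians were -0.12 in INV16 against MIB control, -0.13 in the ACD mutant against MIB control and -0.00 in INV16 against the ACD mutant. In the ACD mutant against MIB control 6 of 22 were above 0, with 51.4% of all genes. The part of this pathway in the Sesn2 and Ddit4 differences was not tested.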
